A study of Mus musculus with 40 samples.

Results

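Ltf, Ngp, Cd177 and S100a9 are genes of the maturing neutrophil, and their transcripts were followed in mouse bone marrow after a dose of cyclophosphamide. The members were chosen by their symbols, as the probes of the array annotated to them. Earlier results of these data were known at that choice. The places of the members among all features, and the shares set beside them, are therefore a description. Each has 1 probe (007K19 for Ltf, 003D24 for Ngp, 020K01 for Cd177 and 002L01 for S100a9), so they are 4 of 13443 probes and 4 of 9616 named genes. All 4 could be tested. S100a8, the partner of S100a9, also has a probe, but it holds no value on any of the 40 arrays and was not analysed here.

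The study compared marrow of untreated DBA/2 mice, an inbred laboratory strain, with marrow of DBA/2 mice given cyclophosphamide (83 mg/kg into the peritoneum) and harvested on day 1, 2 or 5. Active metabolites of the drug cross-link DNA and damage dividing cells. Each of the 4 groups held 5 independently harvested mice, and each mouse was measured on 2 arrays, which were averaged. Whole marrow cells were used, with no sorting stated. The labels used here state neither sex nor age. Each array compared the RNA of 1 mouse, labelled with Cy5, with a common pool of marrow RNA from the same strain, labelled with Cy3. One label calls that pool untreated and another says that its mice received cyclophosphamide; the pool cancels in differences between groups. A value below is the log2 ratio of mouse over pool, so 0 means the level of the pool and not an absence of RNA. The labels do not state the base of the logarithm; were it natural, every fold below would be larger.

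Neutrophils fill their granules in an order that follows their maturation in the marrow. Promyelocytes make the proteins of the primary granules, myelocytes and metamyelocytes make those of the secondary granules, and later cells make gelatinase granules and the receptors of the circulating cell. Ltf encodes lactoferrin, an iron-binding protein of the secondary granules. Ngp encodes neutrophilic granule protein, a mouse granule protein related to the cathelicidins. Cd177 is a surface glycoprotein of neutrophils that is also stored in the secondary granule membrane. S100a9 pairs with S100a8 to form calprotectin, a calcium- and zinc-binding complex that is abundant in the cytosol of neutrophils and also present in monocytes. The C/EBP transcription factors, C/EBP epsilon above all, are known to drive the secondary granule genes.

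The promoters of the 4 genes are shown because their transcripts moved together between days. They are taken from RefSeq on GRCm38.p6, which is the C57BL/6J reference and not the DBA/2 sequence, and run from 250 bases before to 50 bases after the annotated start, 5′ to 3′ on the strand of the gene. Ltf lies on chromosome 9 (gene 111019292 to 111042766) with its window at chr9:111019042-111019341 on the plus strand. Ngp lies on the same chromosome (gene 110419808 to 110423012) with its window at chr9:110419558-110419857 on the plus strand. Cd177 lies on chromosome 7 (gene 24743983 to 24760334) with its window at chr7:24760262-24760561 on the minus strand, set around a start at 24760311, 23 bases inside the outer bound of the gene, and S100a9 on chromosome 3 (gene 90692630 to 90695721) with its window at chr3:90695672-90695971 on the minus strand. Capitals mark every match to the C/EBP half-palindrome TTGCNNAA or to the shorter half-site TTGCG, searched on both strands.
Ltf: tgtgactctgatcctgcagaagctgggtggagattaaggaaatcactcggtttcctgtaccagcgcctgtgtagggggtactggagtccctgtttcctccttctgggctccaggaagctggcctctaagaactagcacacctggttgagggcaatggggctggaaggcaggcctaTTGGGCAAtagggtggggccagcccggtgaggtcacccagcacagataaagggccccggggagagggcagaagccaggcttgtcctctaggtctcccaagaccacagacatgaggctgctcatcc
Ngp: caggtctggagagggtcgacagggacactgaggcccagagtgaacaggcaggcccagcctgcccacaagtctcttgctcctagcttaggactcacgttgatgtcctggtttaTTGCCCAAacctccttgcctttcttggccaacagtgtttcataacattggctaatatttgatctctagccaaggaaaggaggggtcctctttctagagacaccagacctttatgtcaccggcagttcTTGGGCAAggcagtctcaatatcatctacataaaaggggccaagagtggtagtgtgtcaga
Cd177: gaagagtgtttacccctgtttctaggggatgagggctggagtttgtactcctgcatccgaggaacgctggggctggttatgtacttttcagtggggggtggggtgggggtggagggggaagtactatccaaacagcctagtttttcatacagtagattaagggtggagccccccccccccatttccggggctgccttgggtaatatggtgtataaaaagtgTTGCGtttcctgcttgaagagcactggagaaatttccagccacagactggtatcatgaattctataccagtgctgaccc
S100a9: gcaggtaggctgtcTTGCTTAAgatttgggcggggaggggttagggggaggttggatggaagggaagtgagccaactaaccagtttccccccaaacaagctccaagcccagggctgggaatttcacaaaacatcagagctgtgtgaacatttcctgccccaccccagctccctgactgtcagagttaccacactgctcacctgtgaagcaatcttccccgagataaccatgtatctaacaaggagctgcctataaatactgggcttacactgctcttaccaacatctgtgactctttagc

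TTGCNNAA matched in the windows of 3 of the 4 genes, against 10.8% of the 32851 promoters of the table. In Ltf the match lay on the opposite strand, with its first base 75 bases before the start, and overlapped a CCAAT match. In Ngp there were matches 138 bases before the start on the gene's strand and 11 bases before it on the opposite strand. In S100a9 the match lay 236 bases before the start. Cd177 held no TTGCNNAA in this window, but a TTGCG lay 29 bases before its start, which 17.4% of promoters hold somewhere. The CCAAT box, written CCAAT, matched in Ltf and Ngp (37.4% of promoters), the PU.1 core GAGGAA in Ltf and Cd177 (28.3%), and the GATA motif AGATAA in Ltf and S100a9 (11.2%), the last at 32 and 30 bases before the start. These matches describe letters; no binding was measured.

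An array gave values for 4079 to 7977 probes, and array medians lay between -0.015 and 0.007. Ltf, Ngp and Cd177 had values on 40 of 40 arrays and S100a9 on 31. S100a9 was blank on both arrays of control mouse 4, day 2 mice 1 and 3 and day 5 mouse 1, and on the second array of day 1 mouse 5, which left 4, 5, 3 and 4 mice in control, day 1, day 2 and day 5. The 2 arrays of a mouse were close for Cd177 (SD between arrays 0.0414), Ltf (0.0895) and Ngp (0.11) and less so for S100a9 (0.203), for which the arrays of day 2 mouse 5 differed by 0.75. The residual SD between mice of a group was larger than this in each gene: 0.282 for Cd177, 0.338 for Ltf, 0.424 for Ngp and 0.463 for S100a9. Of the listed markers of marrow cells, 7 of 12 for erythroid cells, 2 of 6 for granulocyte precursors and 3 of 10 for B cells could be tested; as ratios to a marrow pool these values do not check the tissue.

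Ngp needs a caution before its values are read. Several probes, among them those of the globin Hba-a1 and of ribosomal proteins, read alike to within 0.001 of each other on 36 of the 40 arrays, which is how spots saturated in both dyes would look. Spot intensities were not used here, so saturation itself was not tested. The shared value lay between -0.725 and -0.199, depending on the array. Ngp was at it on 13 arrays, namely 6 of the 10 control arrays, 5 of the 10 arrays of day 1, 0 of the 10 of day 2 and 2 of the 10 of day 5. Where a probe is at that value its ratio carries no size. Both arrays of control mouse 3 lay only 0.0101 and 0.0024 above it, so control mouse 4 alone gave Ngp values clear of it among the control mice. Ltf was at the shared value on 1 array, the second of control mouse 2, and Cd177 and S100a9 on none. Cd177 lay near it on both arrays of day 1 mouse 3 (-0.0222 and -0.0111 from it). The arrays of day 1 mouse 5 had Cd177 0.0178 and 0.0106 above it. How far this touched the Cd177 differences that involve day 1 was not tested.

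**Figure D1:**
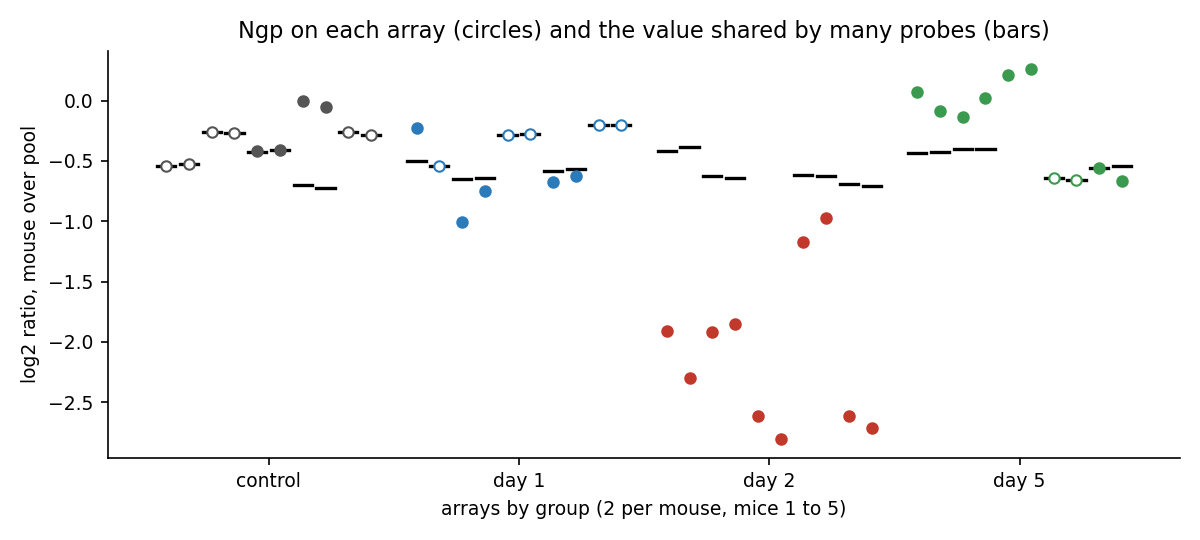
The Ngp log2 ratio on each of the 40 arrays, in the order control, day 1, day 2 and day 5, with a short bar at the value that many probes shared on that array. Open circles mark the 13 arrays on which Ngp sat at that value; on day 2 none did, and the circles lie below the bars wherever a bar was found.

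Ltf, lactoferrin, was near the level of the pool in untreated marrow, with control mice 1 to 5 at -0.05, -0.23, 0.20, 0.20 and 0.07. On day 1 the mice were at 0.33, -0.78, -0.40, 0.37 and -0.55, on day 2 at -1.80, -1.65, -1.90, -1.98 and -2.30, and on day 5 at 0.31, -0.12, 0.10, 0.66 and 0.08. All day 2 mice lay below every mouse of the other groups, and the other groups overlapped. The group means were 0.04 ± 0.18 for control, -0.21 ± 0.53 for day 1, -1.93 ± 0.24 for day 2 and 0.21 ± 0.30 for day 5 (SD, n = 5 each).

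Ngp, the cathelicidin-related granule protein, was at -0.53, -0.26, -0.41, -0.03 and -0.27 in control mice. It was at -0.39, -0.88, -0.28, -0.65 and -0.20 on day 1, at -2.10, -1.88, -2.71, -1.07 and -2.67 on day 2, and at -0.01, -0.05, 0.24, -0.65 and -0.61 on day 5. Its day 2 mice again lay below all others, but they spread more widely than those of Ltf, with mouse 4 at -1.07 nearest to the other groups. On the arrays of day 2 with a shared value, the Ngp value minus the shared value ran between -2.01 and -0.355. The means were -0.30 ± 0.19, -0.48 ± 0.28, -2.09 ± 0.67 and -0.22 ± 0.39 (SD, n = 5 each, control to day 5), and those of control, day 1 and day 5 are in part the shared value.

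Cd177, the surface glycoprotein, varied least among untreated mice, which were at 0.05, -0.03, 0.07, 0.19 and 0.08. It was at 0.37, -0.75, -0.30, 0.02 and -0.19 on day 1, at -1.49, -1.12, -1.40, -1.35 and -1.94 on day 2, and at 0.45, -0.06, 0.28, -0.10 and 0.16 on day 5. Day 2 stood below the other groups without overlap. The means were 0.07 ± 0.08, -0.17 ± 0.41, -1.46 ± 0.30 and 0.15 ± 0.23 (SD, n = 5 each, control to day 5).

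S100a9, the calprotectin subunit, was above the pool in all 4 control mice with a value (0.34, 0.22, 0.90 and 0.82) and in the 4 measured mice of day 5 (0.70, 0.52, 1.70 and 0.85). The day 1 mice were at 1.01, -0.20, -0.12, -0.03 and 0.46, and the 3 measured mice of day 2 at -0.62, -1.47 and -0.89. The 3 day 2 mice were below all others, while 2 of the day 1 mice reached into the range of the control mice or above it. The means were 0.57 ± 0.34 for control, 0.22 ± 0.51 for day 1, -0.99 ± 0.44 for day 2 and 0.94 ± 0.52 for day 5 (SD, n = 4, 5, 3 and 4).

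**Figure D2:**
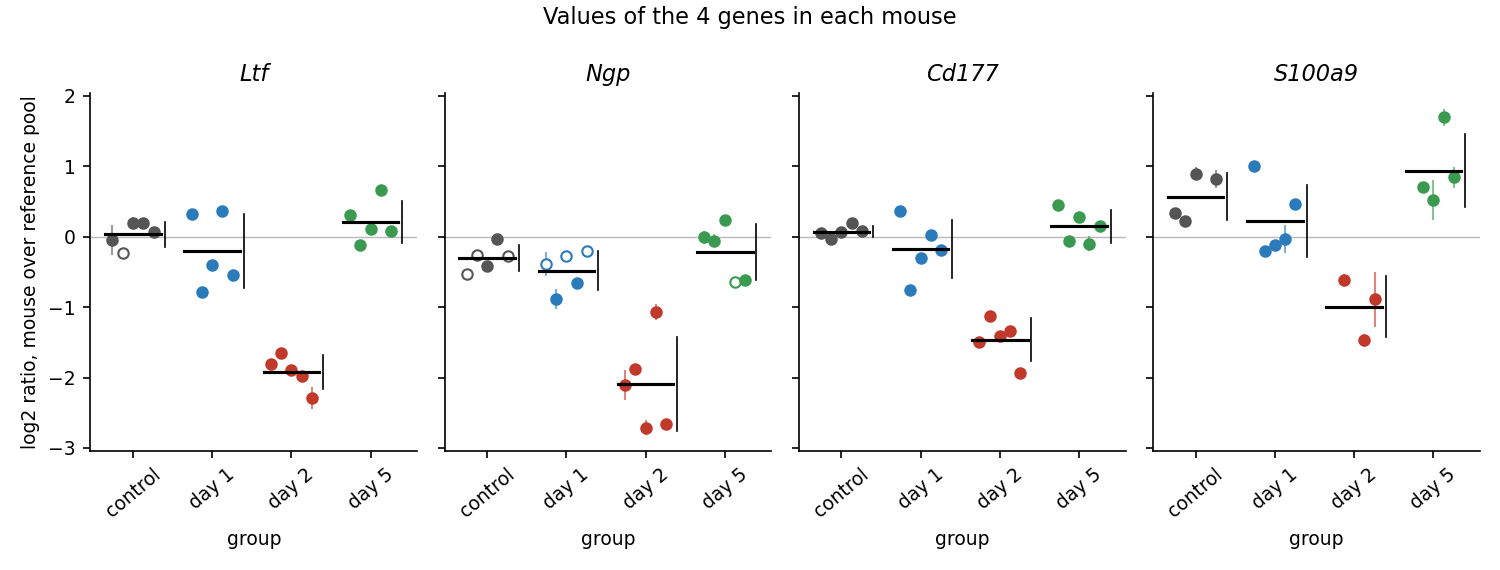
The log2 ratio to the marrow pool of Ltf, Ngp, Cd177 and S100a9 in each mouse, by group from control to day 5, with the group mean and its SD as a vertical line. Open circles mark mice with an array at the value shared by many probes; in each panel the day 2 mice lie below all others.

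Ltf, Cd177 and S100a9 had 1 order of group means, highest on day 5, then control, then day 1, then day 2. For Ngp only the place of day 2, below the rest, can be read, since the means of the other groups are in part the shared value. Only the last step of that order was larger than the spread between mice, as the tests below show, and the step between day 5 and control turned round without day 5 mouse 1 for Cd177. The day 1 mice spread more widely than the control mice in Ltf, Cd177 and S100a9, with an SD of 0.53 against 0.18 in Ltf and of 0.41 against 0.08 in Cd177. Day 1 mouse 2 was the lowest of its group for Ltf, Cd177 and S100a9. Day 1 mouse 1 was the highest for Cd177 and S100a9, and mice 1 and 4 were above every control mouse for Ltf.

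On day 1, none of the 4 genes passed the test against control, in a comparison in which 19.1% of the 5297 genes and unnamed probes tested did. The differences were -0.24 ± 0.19 for Ltf (SE; 95% confidence interval -0.63 to 0.15; adjusted p = 0.392, limma), -0.18 ± 0.23 for Ngp (adjusted p = 0.635, limma), -0.24 ± 0.16 for Cd177 (interval -0.58 to 0.09; adjusted p = 0.316, limma) and -0.35 ± 0.26 for S100a9 (interval -0.88 to 0.19; adjusted p = 0.368, limma). A p that misses the threshold does not show that day 1 and control marrow were alike, and these intervals hold falls of up to 0.58 to 0.88. Single mice moved the differences by over 1.5 times: without day 1 mouse 2 they were -0.10 for Ltf, -0.08 for Ngp and -0.10 for Cd177, without day 1 mouse 1 -0.38 for Ltf, -0.38 for Cd177 and -0.54 for S100a9, without day 1 mouse 4 -0.39 for Ltf, without day 1 mouse 5 -0.16 for Ltf, and without control mouse 4 -0.11 for Ngp. None of these passed. The Ngp differences and its missing call cannot be read, since 6 of the 10 control and 5 of the 10 day 1 arrays were at the shared value.

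On day 2, all 4 genes were lower than in control marrow. Of the 5297 genes and unnamed probes tested, 9.61% were called lower. Ltf was 3.90-fold lower, with a difference of -1.96 ± 0.19 (SE; adjusted p = 1.39e-06, limma) and an interval of 2.97- to 5.11-fold. Cd177 was 2.89-fold lower (-1.53 ± 0.16, adjusted p = 3.11e-06, limma), with an interval of 2.29- to 3.65-fold. S100a9 was 2.95-fold lower (-1.56 ± 0.29, adjusted p = 0.0013, limma; 3 mice of day 2 and 4 of control), with an interval of 1.94- to 4.50-fold. In whole marrow, fewer cells that carry such a transcript and less of it per cell cannot be told apart.

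Ngp fell as well on day 2, by 1.79 ± 0.23 on the log2 scale (SE; adjusted p = 2.21e-05, limma), but the size of that fall cannot be read because most control arrays sat at or next to the shared value. The day 2 mice lay between -2.71 and -1.07, against -0.03 in control mouse 4, the only control mouse clear of the shared value. With the shared values left blank and at least 2 mice of every group asked for, which was chosen after seeing the data, the difference was -1.87 ± 0.33 (adjusted p = 0.00145, limma), but of its 2 control mice, 3 and 4, mouse 3 lies next to the shared value, which leaves 1 control mouse with a readable level.

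For all 4 genes every day 2 mouse with a value was below every control mouse, which held for 9.4% of all genes and unnamed probes tested. Taken gene by gene, the exact two-sided permutation test over mice gave p = 0.00794 for Ltf, Ngp and Cd177, the smallest that 5 mice against 5 allow. For S100a9 it gave p = 0.0286, the smallest that 3 against 4 allow. Ordered by the size of the difference, Ltf was the third lowest of the 5297, S100a9 12 from the bottom and Cd177 13; the place of Ngp is not given, since its size cannot be read.

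Against day 1, day 2 marrow was lower in all 4 genes, where 0.736% of all genes and unnamed probes tested were called lower. Ltf had the lowest difference of all 5297 (-1.72 ± 0.19, adjusted p = 1.74e-05, limma) and Cd177 the third lowest (-1.29 ± 0.16, adjusted p = 5.39e-05, limma). Ngp was lower too (-1.61 ± 0.23, adjusted p = 0.00032, limma), by an amount that cannot be read, since 5 of the 10 day 1 arrays were at the shared value. S100a9 was 6 from the bottom (-1.22 ± 0.28, adjusted p = 0.0232, limma). The S100a9 call was lost with the replicate number as a block (-1.18, adjusted p = 0.115), with only the second array of each mouse (-1.02, adjusted p = 0.0893) and with a fit of the 2 groups alone (adjusted p = 0.056). All day 2 mice lay below all day 1 mice for each of the 4 genes, which held for 1.98% of the features tested. With members chosen when earlier results were known, these places and shares describe the genes and are not a test. The exact permutation p was 0.00794 for Ltf, Ngp and Cd177 and 0.0179 for S100a9, the smallest possible in each case.

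By day 5 the 4 genes were back above day 2, where 10.3% of the genes and unnamed probes tested were called higher. The rise of Ltf was the largest of all 5297, at 2.13 ± 0.19 or 4.39-fold (adjusted p = 9.1e-08, limma). Cd177 rose by 1.61 ± 0.16 or 3.04-fold (adjusted p = 4.2e-07, limma) and S100a9 by 1.93 ± 0.29 or 3.82-fold (adjusted p = 0.000106, limma; 4 mice of day 5 and 3 of day 2). Ngp rose by 1.87 ± 0.23 (adjusted p = 4.35e-06, limma), a size that is again blurred by the shared value. On day 5, 2 arrays were at it and the first array of mouse 5 lay next to it (-0.0051 from it). No shared value was found on the arrays of day 5 mouse 3. Every day 5 mouse was above every day 2 mouse in each gene, as for 9.67% of features, and the exact permutation p was the smallest possible in each gene (0.00794, or 0.0286 for S100a9). This comparison shares its day 2 mice with those above, as the comparisons with control share the control mice, so the rise is not a second, independent sight of the low day 2 values.

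**Figure D3:**
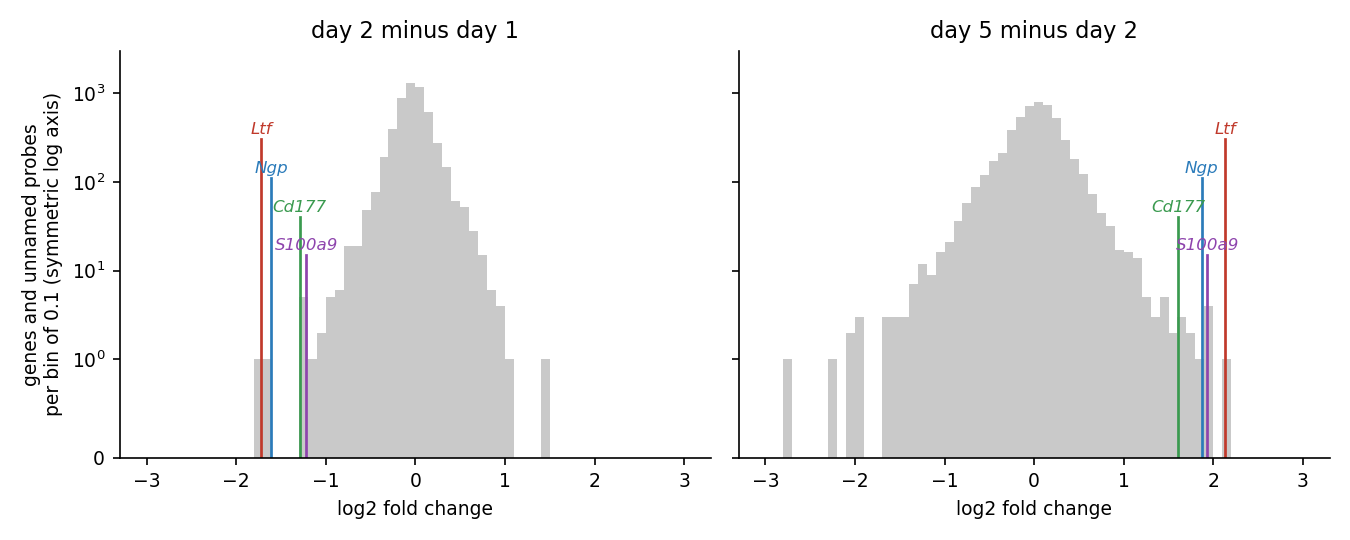
The number of genes and unnamed probes in each bin of the log2 difference (bins of 0.1, symmetric log axis), for day 2 minus day 1 on the left and day 5 minus day 2 on the right, with the 4 genes marked by lines. The 4 lie in the low tail of day 2 minus day 1 and in the high tail of day 5 minus day 2; line heights have no meaning, and the place of the Ngp line is not a readable size.

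Against control, day 5 showed no call in the 4 genes, in a comparison in which 2.62% of features were called. The differences were 0.17 ± 0.19 for Ltf (interval -0.22 to 0.56; adjusted p = 0.88, limma), 0.07 ± 0.16 for Cd177 (interval -0.26 to 0.41; adjusted p = 0.953, limma), 0.08 ± 0.23 for Ngp (adjusted p = 0.97, limma) and 0.37 ± 0.27 for S100a9 (interval -0.19 to 0.93; adjusted p = 0.751, limma). For Ltf and Cd177 these intervals leave out a fall or rise of the size seen on day 2. For S100a9, with 4 mice in each group, a rise of up to 0.93 lies within the interval. The Ngp difference cannot be read, since 6 of the 10 control and 2 of the 10 day 5 arrays were at the shared value. The S100a9 difference was 0.12 without day 5 mouse 4, and that of Ltf 0.06 without the same mouse; Ltf was at 0.10 without control mouse 2.

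Day 5 against day 1 was added after the data had been seen, and 25.3% of features were called there in either direction and 12.2% were called higher on day 5. S100a9 was higher on day 5 by 0.72 ± 0.26 (adjusted p = 0.045, limma), with groups that overlapped. That call is not firm: the exact permutation test of S100a9 alone gave p = 0.0794, 7 of 14 alternatives lost the call, and so did leaving out day 1 mouse 2, 3 or 4 or day 5 mouse 4 or 5 (0.47 without day 5 mouse 4, the smallest value, adjusted p = 0.18, limma). Ltf was at 0.41 ± 0.19 (adjusted p = 0.112, limma), Cd177 at 0.32 ± 0.16 (adjusted p = 0.159, limma) and Ngp at 0.26 ± 0.23 (adjusted p = 0.439, limma). That of Ngp cannot be read, since 5 of the 10 day 1 arrays were at the shared value.

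**Figure D4:**
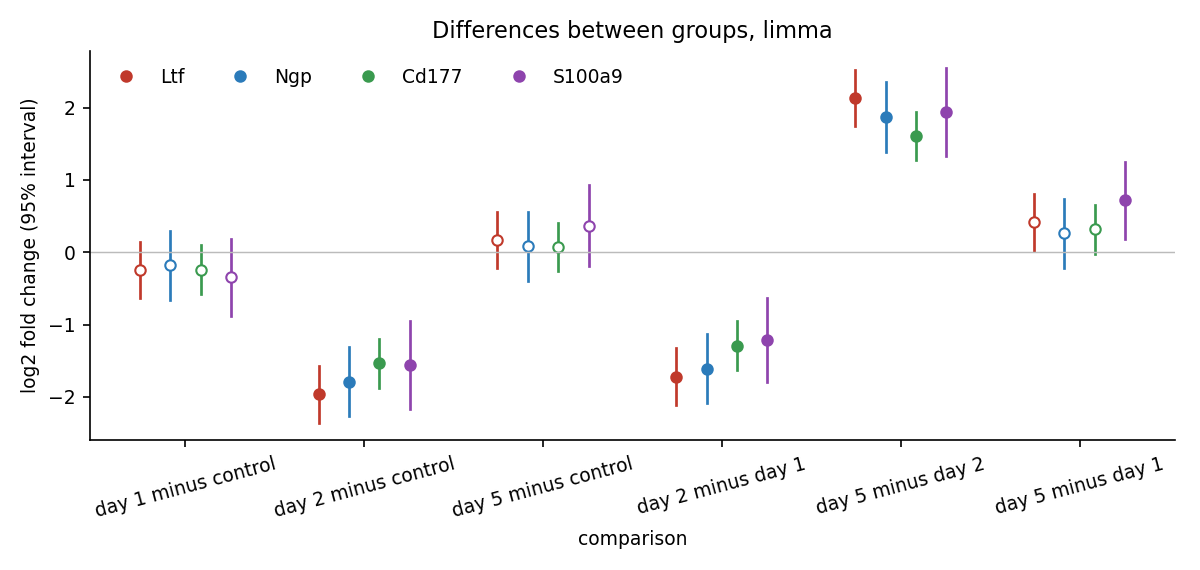
The log2 difference of each of the 4 genes with its 95% confidence interval in 6 comparisons: each day minus control, day 2 minus day 1, day 5 minus day 2 and day 5 minus day 1. Filled symbols passed the test at an adjusted p under 0.05 and open ones did not. All 4 are filled in the 3 comparisons that involve day 2, and outside these only S100a9 is, in day 5 minus day 1. The place of the Ngp symbols is not a readable size.

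Other genes of the secondary and tertiary granules gave a partial repeat of this course. Of 41 listed, 6 have no probe, 13 have no value on any array and 9 were measured in too few mice, which left 13 to test, 3 of them Ltf, Ngp and Cd177. Several of the best-known genes of the class are among those lost: Camp had values on 4 arrays, Lcn2 on 1 and Mmp8 on 0. Of the other 10, 6 were lower on day 2 than in control, where 9.61% of all features were, 0 were higher and 4 did not pass. Their median difference was -0.70, beside -0.02 over all features tested.

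The 6 falls were smaller than that of Ltf. Chil1, a chitinase-like protein, fell by 1.12 ± 0.14 (adjusted p = 2.07e-05, limma), Cybb, the membrane subunit of the NADPH oxidase, by 1.11 ± 0.23 (adjusted p = 0.00212, limma) and Anxa1, annexin A1, by 1.10 ± 0.27 (adjusted p = 0.00645, limma). Stom, the membrane protein stomatin, fell by 0.78 ± 0.18 (adjusted p = 0.00376, limma), Hp, haptoglobin, by 0.80 ± 0.24 (adjusted p = 0.0245, limma) and Itgb2l, an integrin chain of neutrophils, by 0.48 ± 0.15 (adjusted p = 0.0356, limma). Mmp9, the gelatinase of the tertiary granules, was at -0.62 (adjusted p = 0.0737), the tetraspanin Cd63 at -0.02, arginase Arg1 at 0.18 and the pentraxin Ptx3 at 0.45, none of which passed.

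Between day 2 and day 1, Chil1 alone of the 10 was lower, as were 0.736% of all features (-0.97 ± 0.14, adjusted p = 0.000388, limma), with a median of -0.53 for the 10 and -0.02 for all features. On day 1 itself 2 of the 10 were lower than in control, where 8.38% of features were: Stom (-0.50, adjusted p = 0.0484, limma) and Cd63 (-0.38, adjusted p = 0.0457, limma). From day 2 to day 5, 7 of the 10 were higher on day 5, as were 10.3% of features, led by Anxa1 (1.73), Chil1 (1.32) and Cybb (1.02), and Ptx3 was lower (-0.64), with a median of 0.72 beside 0.03 over all features. Mmp9 did not share this course: on day 5 it was below control (-0.98 ± 0.26, adjusted p = 0.0381, limma), in a comparison in which 1.72% of features were called lower, and Cd63 was above control (0.55 ± 0.13, adjusted p = 0.0206, limma), as were 0.906% of features.

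S100a9 stands alone in its own list. Of 14 S100 genes and calprotectin partners, among them the receptor genes Ager and Tlr4, 5 have no probe, 5 no value and 3 too few mice, and S100a9 was the 1 tested. The course of calprotectin can therefore be followed here through 1 of its subunits.

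The few genes tested for the stage before, listed as primary granule and granulocyte precursor genes, followed another course. Only 3 of 14 listed could be tested: Prtn3, which encodes proteinase 3, Plac8 and Cd63. Plac8 was listed as a precursor marker, and Cd63 also stands among the 10 secondary and tertiary granule genes above. Mpo had values on 0 arrays, Ctsg on 9 and Elane on 10, so these were not tested. The course of the primary granule genes as a class cannot be read from so few. On day 1, when Ltf, Cd177 and S100a9 showed no call and Ngp could not be read, all 3 were lower than in control, as were 8.38% of features. Prtn3 was at -1.15 ± 0.23 (adjusted p = 0.00202, limma) and Plac8 at -0.66 ± 0.18 (adjusted p = 0.0115, limma). On day 2, when Ltf, Ngp, Cd177 and S100a9 were low, 0 of the 3 passed in either direction, where 9.61% of features were called in each. Prtn3 was at -0.09 ± 0.24 (adjusted p = 0.844, limma) and Plac8 at -0.06 ± 0.18 (adjusted p = 0.858, limma). On day 2 Prtn3 was above day 1 (1.06 ± 0.24, adjusted p = 0.0187, limma), where 1.36% of features were called higher and Ltf had the lowest difference of all. On day 5 all 3 were above day 2, as were 10.3% of features, with Prtn3 at 1.44 ± 0.24 (adjusted p = 0.000202, limma). The difference between the 2 courses was not itself tested.

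Genes of the later neutrophil, its receptors and lipid enzymes, moved in both directions. Of 26 listed 12 were tested. On day 2, compared with control, 4 of these were lower, 1 was higher and 7 did not pass, with a median of -0.11; of all features 9.61% were called in each direction. Lta4h, the hydrolase that makes leukotriene B4, was at -0.87 ± 0.22 (adjusted p = 0.00813, limma), Alox5ap, the 5-lipoxygenase activating protein, at -0.73 ± 0.19 (adjusted p = 0.0107, limma), the formyl peptide receptor Fpr2 at -0.68 ± 0.17 (adjusted p = 0.00715, limma) and the chemokine receptor Cxcr4 at -0.63 ± 0.20 (adjusted p = 0.0333, limma). The cytokine Il1b was higher (0.91 ± 0.30, adjusted p = 0.0373, limma). Csf3r, the G-CSF receptor, was at 0.28 (adjusted p = 0.17) and Trem1 at 0.11 (adjusted p = 0.617). Lta4h was already lower than in control on day 1 (-0.97, adjusted p = 0.00483, limma), as were 8.38% of features. Il1b (0.92), Clec4e (0.53) and Csf3r (0.41) were higher on day 1, as were 10.7%. Alox5ap and Fpr2 were also below day 1 on day 2 (-0.75, adjusted p = 0.0377, limma, and -0.81, adjusted p = 0.00914, limma), as were 0.736% of features. On day 5, Lta4h (1.41), Alox5ap (0.76) and Fpr2 (0.73) were above day 2, as were 10.3% of features. Il1b (-2.79), Ccl6 (-1.02) and Csf3r (-0.85) were below day 2, as were 10.5%. The Ccl6 groups of that comparison, of 3 mice each, overlapped. Against control, Il1b (-1.88), Ccl6 (-1.15) and Csf3r (-0.57) were lower on day 5, as were 1.72% of features.

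Among the transcription factors of granulocytes, 6 of 22 could be tested, and Cebpe, which encodes C/EBP epsilon, has no probe. Klf5 was lower on day 2 than in control (-0.60 ± 0.19, adjusted p = 0.0372, limma), as were 9.61% of features, but these groups overlapped. It was higher on day 5 than on day 2 (0.72 ± 0.19, adjusted p = 0.012, limma), as were 10.3% of features. Klf5 had values on 21 of the 40 arrays, and both comparisons rest on 3 mice against 3. The other 5 did not pass on day 2: Gfi1 was at -0.40 (adjusted p = 0.155), Stat3 at 0.28 (adjusted p = 0.124), Myc at 0.33 (adjusted p = 0.198), Klf6 at -0.39 (adjusted p = 0.234) and Cbfb at -0.14 (adjusted p = 0.436).

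**Figure D5:**
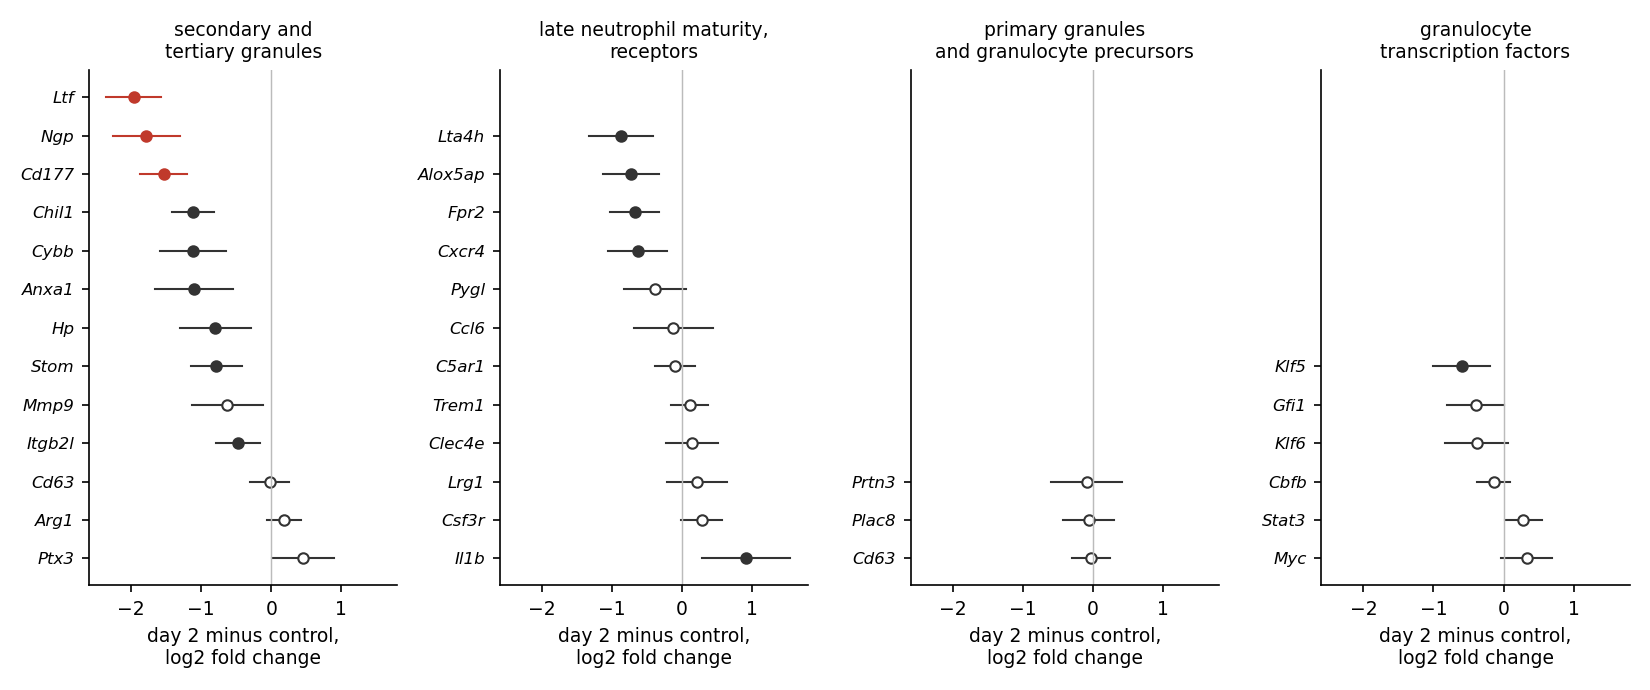
The log2 difference of day 2 minus control, with its 95% confidence interval, for each tested gene of 4 lists, 1 panel a list. Filled symbols passed the test. Ltf, Ngp and Cd177, in red, lie furthest to the left, though the place of Ngp is not a readable size. The 3 tested genes of the list of primary granules and granulocyte precursors lie near 0.

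Markers of other cells in the marrow also moved on day 2. The part of these cells in the values of the 4 genes, and of the listed granule genes such as Stom, was not tested. The macrophage markers were higher in 5 of 5 tested (of 10 listed; 9.61% of features were called higher), and their mean level per mouse ran between 0.662 and 1.42 on day 2, against -0.387 to 0.20 in control. Endothelial and stromal markers were higher in 5 of 6 (of 9 listed), with levels of 0.374 to 0.702 on day 2, against -0.22 to -0.098 in control. Megakaryocyte markers were higher in 2 of 3 (of 7 listed), with 0.317 to 1.40 on day 2, against -0.439 to 0.145 in control.

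On day 2, 9.61% of features were called lower than in control. B cell markers were lower in 2 of 3 (of 10 listed), with -1.22 to -0.524 on day 2, against -0.0922 to 0.284 in control. Erythroid markers were lower in 3 of 7 (of 12 listed), with -0.853 to -0.626 on day 2, against -0.475 to -0.226 in control; that mean includes Hba-a1, one of the probes often at the shared value, and Alas2, which was at 0.58 (adjusted p = 0.06) with every day 2 mouse above every control mouse. Monocyte markers, from a cell type that also makes S100a9, passed in 0 of 2 (of 10 listed), at -0.132 to 0.0755 on day 2, against -0.263 to 0.403 in control. On day 5, when S100a9 was above day 2, both were above day 2 as well, as were 10.3% of features. F13a1 was at 1.03 ± 0.11 (adjusted p = 4.38e-07, limma) and Ms4a6c at 0.86 ± 0.13 (adjusted p = 9.32e-05, limma), with levels of 0.773 to 1.17 on day 5. Both were also above control on day 5 (median 0.73), as were 0.906% of features, and below it on day 1 (median -0.76), as were 8.38%. Their part in the S100a9 values was not tested. The 2 granulocyte precursor markers also passed in 0 of 2. Values are ratios to a marrow pool, so no marker can be said to be at 0.

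Across mice, the 4 genes were compared with each other and with other genes as a description. Mice share their group, and the day 2 mice stand apart, so a correlation over all mice largely restates that gap. Over 20 mice Ltf and Cd177 had a Pearson correlation of 0.961 (Spearman 0.824). Without the day 2 mice it was 0.723 over 15 mice, and 0.435 after the 2 mice farthest from the median of Ltf were also left out. Ltf and S100a9 stood at 0.885 over 16 mice and at 0.708 over the 13 outside day 2. Ngp and Ltf stood at 0.847 over 20 mice and at 0.0852 over the 15 outside day 2, in which 13 of the 30 arrays had Ngp at the shared value.

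The genes most like each of the 4, by Pearson correlation over at least 16 mice, were often one another. For Ltf they were Cd177, Chil1 (0.934), Inhba (0.922), Aldh3b1 (0.916) and S100a9, out of 3448 genes compared. For Cd177 they were Ltf, Ngp (0.907), Ccnd3 (0.903), Zfand6 (0.901) and Chil1 (0.895). For Ngp they were Cd177, Ltf, Zfand6 (0.817), Syngr1 (0.813) and Dstn (0.81). For S100a9, out of 2540 genes, they were Chkb (0.908), Acadsb (0.898), Unc119 (0.897), Ncf1 (0.886), a subunit of the NADPH oxidase, and Abhd5 (0.885), none of them one of the other 3. Outside day 2, Ltf kept 0.835 with Aldh3b1 and 0.793 with Chil1, and S100a9 kept 0.872 with Unc119 and with Abhd5. Others held less: Cd177 stood at 0.546 with Ccnd3, 0.558 with Chil1 and 0.681 with Zfand6. Ngp stood at 0.29 with Zfand6, 0.709 with Syngr1 and 0.776 with Dstn. The 13 arrays with Ngp at the shared value are part of its correlations.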

How the data were processed

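The authors deposited 1 value per probe and array, taken here as the log2 ratio of mouse (Cy5) over reference pool (Cy3), per the labels' dyes. The labels used here state no scanner, background correction, normalization, log base or rule behind blank values. Of the 13443 probes, 10032 had 1 symbol in the platform annotation, 170 had several and 3241 had no entry; 10028 of the single symbols matched RefSeq. The 2 arrays of a mouse were averaged, then the probes of a symbol. Genes and unnamed probes with at least 3 mice in every group (5297 of 13027) were fitted in limma 3.58.1 under R 4.3.3, with 1 mean per group over all 20 mice, empirical Bayes moderation and Benjamini-Hochberg adjustment over all 5297. The threshold for a call was an adjusted p of 0.05. No value was filled in. SEs and intervals of differences are those of this model. The number of mice limits the precision.

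To find shared values, the most crowded window of 0.001 was taken on each array; 20 probes fell in it on at least 10 arrays, and an array had a shared value where at least 3 of these 20 read within 0.001 of each other. Exact two-sided permutation tests ran over mice. The 5 genes most like each member were ranked by Pearson correlation. The text names the members, the listed genes that passed and the 4 with the smallest p of each list. Members and lists were chosen with earlier results of these data known. Day 5 minus day 1 was added, with its alternatives, after the data had been seen. The steps were tested on simulated data. Alternatives changed the arrays used, the scaling, the filter, the moderation, the treatment of shared values and the mice included.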

Additional observations from a re-analysis of the deposited data

Results flagged for a closer look

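The day 2 effect differed from the day 1 effect in each of the 4 genes, which is the test of day 2 minus day 1, since both effects are set against the same control mice. It was -1.72 for Ltf (adjusted p = 1.74e-05, limma), -1.61 for Ngp (adjusted p = 0.00032, limma), -1.29 for Cd177 (adjusted p = 5.39e-05, limma) and -1.22 for S100a9 (adjusted p = 0.0232, limma). The day 5 effect likewise differed from the day 2 effect, by 2.13 for Ltf (adjusted p = 9.1e-08, limma), 1.87 for Ngp (adjusted p = 4.35e-06, limma), 1.61 for Cd177 (adjusted p = 4.2e-07, limma) and 1.93 for S100a9 (adjusted p = 0.000106, limma). Both sizes for Ngp cannot be read, because of the shared value. No mouse stood apart from its group by Dixon's criterion in the 15 groups of 4 or 5 mice examined, where chance alone marks about 1 in 20.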

How the results depend on the processing

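The lower values of Ltf, Ngp, Cd177 and S100a9 on day 2 than in control, and the higher values on day 5 than on day 2, kept their direction and their call under each alternative that gave a value. They did so with each mouse left out for Ltf, Ngp and Cd177, and for S100a9 in the 17 fits that could be made, none of which left out 1 of its 3 day 2 mice. Mice numbered alike in different groups did not deviate together (mean correlation 0.0295, from -0.391 to 0.33 over 30 pairs and 2979 genes), so the numbers were not taken as pairs. Over the alternatives the day 2 difference from control ran between -2.06 and -1.70 for Ltf, -1.87 and -1.44 for Ngp, -1.54 and -1.30 for Cd177 and -1.81 and -1.40 for S100a9. The Ngp ranges here do not give readable sizes, since each alternative kept control values at or next to the shared value. The S100a9 difference of day 2 from day 1 lost its call in 3 of 14 alternatives: with the replicate block (-1.18, adjusted p = 0.115), with technical array 2 only (-1.02, adjusted p = 0.0893) and with the 2 groups compared alone (-1.22, adjusted p = 0.056); adjusted p ran between 0.00741 and 0.115 over the alternatives, and the cause was not tested. Among the calls of the 4 genes, the replicate block also ended that of S100a9 on day 5 against day 1 and no other; the other listed genes were not refitted with it. The small day 5 difference from control turned in sign for Ngp without day 5 mouse 3 (range -0.0295 to 0.19 over the mice left out) and for Cd177 without day 5 mouse 1 (-0.0014 to 0.13), in values that were not called in any fit. The S100a9 difference of day 5 from day 1 (0.72) also lost its call with the replicate block (0.79, adjusted p = 0.11), technical array 1 only (0.57), quantile normalization (0.58), at least 2 mice of every group asked for (0.72, with shared values kept or blank), the 2 groups compared alone (0.72) and the exact permutation test (0.72), and ran between 0.47 and 0.91 over the mice left out. That of Ltf (0.41) gained a call with mouse as a random effect (0.41, adjusted p = 0.0469) and ran between 0.27 and 0.56 over the mice left out, with a call without day 1 mouse 1 or 4; that of Cd177 ran between 0.17 and 0.45, with a call without day 1 mouse 1. S100a9 on day 5 against control ran between 0.025 and 0.55 over the alternatives and between 0.12 and 0.51 over the mice left out. The number of genes and unnamed probes called on day 2 against control was 1018; it was 592 without day 2 mouse 1 and up to 1123 without another mouse, and 892 to 1136 over the other alternatives.

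Ngp could not be tested with shared values blank and 3 mice per group asked for, since 2 control mice were left. S100a9 could not be tested with all 5 mice asked for, nor without day 2 mouse 2, 4 or 5, so its day 2 level rests on the same 3 mice in every fit.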
